A study of Saccharomyces cerevisiae with 26 samples.

Results

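The COS genes of *Saccharomyces cerevisiae* were followed across glucose-limited cultures of the laboratory strain CEN.PK113-7D grown slowly, at low pH and under high CO2. The 10 genes, COS1 to COS8, COS10 and COS12, were taken by systematic name from the 6600 genes in each library. The family was selected on the FPKM changes of COS2 and COS12 between conditions in these same libraries, so values of both genes are descriptions, and tests were read only for the other 8 members. The steady-state groups were pH 5/50% CO2, pH 3/0.04% CO2, pH 3/50% CO2 and the reference, pH 5/0.04% CO2, with 3 libraries each, and all of these cultures were glucose-limited with the dilution rate set to 0.025 per hour. An equal dilution rate does not mean equal growth of viable cells. The study reports lower viability at low pH and, corrected for viability, a higher specific growth rate there. It also describes oscillating exhaust gas in low-pH cultures, which were sampled regardless. How these differences bear on COS levels was not tested. The group at pH 3/50% CO2 held 1 library labelled as a chemostat and 2 libraries of the steady state that preceded the industrial retentostats. Retentostats, in which cells are retained in the reactor so that growth slows towards zero, were sampled at 4 points in 2 cultures under industrial conditions (pH 3, 50% CO2) and in 2 cultures under laboratory conditions (pH 5, 0.04% CO2), and point 1 was the steady state before retention began.

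Cos proteins are membrane proteins of the endosomal pathway. In *S. cerevisiae* they carry ubiquitin and help other membrane proteins into multivesicular bodies, the endosomes whose inner vesicles are degraded in the vacuole, so that nutrient transporters and receptors are removed from the cell surface. The genes lie next to chromosome ends, in regions where the Sir proteins, among them the NAD-dependent deacetylase Sir2, can silence transcription, and the copies resemble each other closely. The family belongs to the larger group of DUP genes.

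In the S288C reference genome (build R64) every member was an intact open reading frame of 1125 to 1152 coding bases whose nearer end lay between 1705 and 8329 bases from a chromosome end. COS2 (YBR302C, chrII:810340-811479, minus strand) and COS3 (YML132W, chrXIII:7244-8383, plus strand) had identical coding sequences. COS10 (YNR075W, chrXIV:779916-781040, plus strand) and COS12 (YGL263W, chrVII:2790-3932, plus strand) were the divergent members. The other positions were chrXIV:8330-9475 for COS1 (YNL336W), chrVI:6426-7565 for COS4 (YFL062W), chrX:742848-743999 for COS5 (YJR161C), chrVII:1081584-1082729 for COS6 (YGR295C), chrIV:1802-2953 for COS7 (YDL248W) and chrVIII:6401-7546 for COS8 (YHL048W). COS5 and COS6 were on the minus strand and the others on the plus strand. No member overlapped another annotated gene. Each coding sequence formed 1 uninterrupted exon. Subtelomeric gene content of CEN.PK113-7D itself was not analysed here.

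The 60 coding bases that differed most among COS1 to COS8, bases 409 to 468 of each coding sequence, are printed to show how much separates the copies, with the 25 positions at which any of the 8 genes differed in capitals:
COS1: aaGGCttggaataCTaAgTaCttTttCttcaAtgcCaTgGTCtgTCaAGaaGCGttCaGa
COS2: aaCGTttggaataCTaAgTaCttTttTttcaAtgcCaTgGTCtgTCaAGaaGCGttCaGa
COS3: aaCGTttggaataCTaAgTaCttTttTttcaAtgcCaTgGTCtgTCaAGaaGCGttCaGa
COS4: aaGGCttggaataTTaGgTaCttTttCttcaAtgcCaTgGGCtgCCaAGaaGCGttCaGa
COS5: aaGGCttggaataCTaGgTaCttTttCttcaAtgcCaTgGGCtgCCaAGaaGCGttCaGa
COS6: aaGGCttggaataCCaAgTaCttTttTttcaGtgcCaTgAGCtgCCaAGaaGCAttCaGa
COS7: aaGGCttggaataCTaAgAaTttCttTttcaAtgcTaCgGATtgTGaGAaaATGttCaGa
COS8: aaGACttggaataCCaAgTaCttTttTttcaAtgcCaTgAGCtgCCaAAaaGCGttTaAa
COS2 and COS3 shared every letter of this stretch. Over whole coding sequences, the 28 pairs among COS1 to COS8 were 82.2% to 100% identical, COS10 and COS12 were 59.4% to 62.6% identical to those 8 genes, and COS10 and COS12 were 56.5% identical to each other.

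This likeness sets which reads can be counted, because the authors removed reads that mapped to more than 1 place. None of the 1066 windows of 75 bases in COS2, and none in COS3, occurred only once in the R64 genome. All windows of COS10 and COS12 did. Between these extremes, 29.8% of 75-base windows in COS5, 40.2% in COS4, 40.8% in COS1, 44.0% in COS7, 75.6% in COS6 and 96.8% in COS8 occurred once. With windows of 150 bases the shares were 72.4% in COS5, 74.2% in COS4, 64.8% in COS1, 72.3% in COS7, 94.2% in COS6 and 100% in COS8, and still 0% in COS2 and COS3. Identity of COS2 and COS3 continued through all 1600 bases compared upstream of the start codon and ended 53 bases downstream of the stop codon. Levels of COS2 and COS3 as listed cannot therefore be assigned to 1 of these copies from their coding sequences, and levels of COS1, COS4, COS5 and COS7 rest on part of each gene. The windows stand for single reads inside the coding sequence. The study's methods describe paired reads of 150 bases for the chemostat and industrial libraries and single-end reads for the laboratory retentostats. Placement of a read by its mate or by sequence past the stop codon was not tested.

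**Figure D1:**
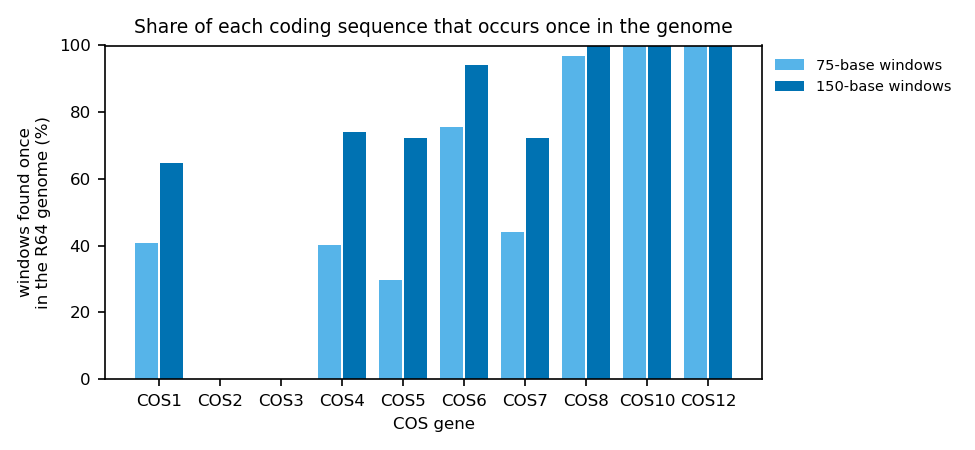
Share of windows of each COS coding sequence (y axis, percent; light bars 75 bases, dark bars 150 bases) that occur once in the R64 genome, by gene (x axis). COS2 and COS3 are at 0% for both lengths, and COS10 and COS12 are at 100%.

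Upstream regions also set COS10 and COS12 apart from COS1 to COS8. The 300 bases upstream were 86.6% to 100% identical between pairs of COS1 to COS8, and 98.0% to 100% among COS1, COS2, COS3, COS5 and COS8. Those of COS10 and COS12 were 46.9% to 51.2% identical to those of COS1 to COS8. Within COS1 to COS8 the order differed from that of the coding sequences. COS8 was 83.9% identical to COS1 in coding sequence and 98.7% upstream, and COS4 was 95.8% and 88.6% identical to COS1. The promoters of COS2, COS10 and COS12 are printed from 250 bases before the start codon through the first 50 coding bases, because these genes moved most between the groups below, and capitals mark matches to the 3 motifs searched:
COS2: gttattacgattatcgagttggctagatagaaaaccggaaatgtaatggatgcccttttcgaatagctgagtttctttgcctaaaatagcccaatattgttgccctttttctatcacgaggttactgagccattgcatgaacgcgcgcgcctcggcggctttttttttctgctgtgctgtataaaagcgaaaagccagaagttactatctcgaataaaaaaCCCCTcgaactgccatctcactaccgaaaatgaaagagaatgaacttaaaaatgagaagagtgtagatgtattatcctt
COS10: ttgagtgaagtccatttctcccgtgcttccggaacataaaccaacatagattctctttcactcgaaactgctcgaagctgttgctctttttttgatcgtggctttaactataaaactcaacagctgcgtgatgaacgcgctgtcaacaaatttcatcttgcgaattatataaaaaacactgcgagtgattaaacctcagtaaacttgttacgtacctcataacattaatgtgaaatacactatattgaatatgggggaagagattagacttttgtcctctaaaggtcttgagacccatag
COS12: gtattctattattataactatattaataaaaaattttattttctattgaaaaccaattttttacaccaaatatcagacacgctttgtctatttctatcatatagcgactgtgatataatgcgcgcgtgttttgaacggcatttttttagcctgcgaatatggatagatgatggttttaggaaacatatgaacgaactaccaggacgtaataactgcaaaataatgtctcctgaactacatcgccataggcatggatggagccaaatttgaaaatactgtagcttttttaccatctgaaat
They lie at chrII:811430-811729 (minus strand), chrXIV:779666-779965 (plus strand) and chrVII:2540-2839 (plus strand) of R64, in that order. Searched on both strands were AGGGG, the stress response element bound by Msn2 and Msn4, GCCAAG, bound by the alkaline-pH repressor Rim101, and TTAGGG, bound by the subtelomeric factor Tbf1. TTAGGG and AGGGG share the letters AGGG. AGGGG occurred once in the promoter of each of COS1 to COS8 and not in those of COS10 and COS12, and 21.6% of 6001 promoters of this length held it. The other 2 motifs, held by 10.3% and 6.85% of promoters, were in no COS promoter.

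Reads counted on genes numbered 12528647 to 16709016 in the steady-state and industrial libraries and 21717268 to 86470818 in the laboratory retentostats, and no 2 libraries were identical. Levels are FPKM, reads scaled by gene length and by all reads counted in the library, with no further scaling between libraries. The median log2 change of all genes tested was -0.42 at low pH with 0.04% CO2, 0.18 at low pH with high CO2 and -0.02 at high CO2 with pH 5, each against the reference. It was 0.60 for high CO2 at pH 3, 0.19 for low pH at 50% CO2 and 0.62 for the interaction of pH and CO2, so changes of the members are to be read against these shifts. Over the 6600 genes, 33 were listed at 0 in all 8 laboratory retentostat libraries and above 1 FPKM in the other 18, and 29 showed the opposite. Genes that every cell uses were among them, such as HYP2 (translation factor eIF5A), at 0 in the laboratory retentostats and 4258 to 11690 FPKM elsewhere, and KRS1 (lysyl-tRNA synthetase), at 5.76 to 15.2 FPKM in the laboratory retentostats and listed at 0 elsewhere. Values of 0 are therefore reported only as listed, and levels were not compared between the 2 kinds of retentostat, for which the study's methods and its sample labels differ on where the RNA was sequenced.

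COS6 had the highest FPKM of the members in every library and made up 38.6% to 60.4% of the summed FPKM of the family. Ambiguous reads were removed while FPKM divides by the whole gene length, and the share that occurs once differs between members. At 75 bases it was 75.6% in COS6, 40.8% in COS1, 44.0% in COS7, 29.8% in COS5 and 0% in COS2. The order and sums given here are of listed FPKM and were not corrected for this share. In the steady states COS6 averaged 252 ± 46.1 FPKM at pH 5/50% CO2, 410.0 ± 10.3 at pH 3/0.04% CO2, 307 ± 20.5 at pH 3/50% CO2 and 235 ± 63.3 FPKM in the reference (SD, n = 3 each). COS1 followed at 127 ± 24.0, 140.4 ± 1.38, 141 ± 18.2 and 100.01 ± 26.9 FPKM in the same order of groups. COS7 (49.6 to 98.1 FPKM over the 12 libraries) came next and overlapped COS1 (70.8 to 161) above it and COS5 (33.8 to 58.6) below it. COS12 (1.38 to 37.4 FPKM), COS2 (4.19 to 22.2), COS4 (4.64 to 16.4) and COS10 (1.59 to 13.7) overlapped in range. COS3 held 1 read in a single library at pH 5/50% CO2 and was otherwise listed at 0. COS8 was listed at 0 in all 12. Per length, the summed family, COS2 and COS12 included, reached 568 ± 87.3 FPKM at pH 5/50% CO2 and 696 ± 18.3 at pH 3/0.04% CO2. It reached 646 ± 58.5 FPKM at pH 3/50% CO2 and 483 ± 116 FPKM in the reference. Replicates 1 to 3 of the reference had 581, 512 and 355 FPKM, so replicate 3 stood below the others. Expression is per RNA counted, so fewer expressing cells and less RNA per cell cannot be told apart.

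**Figure D2:**
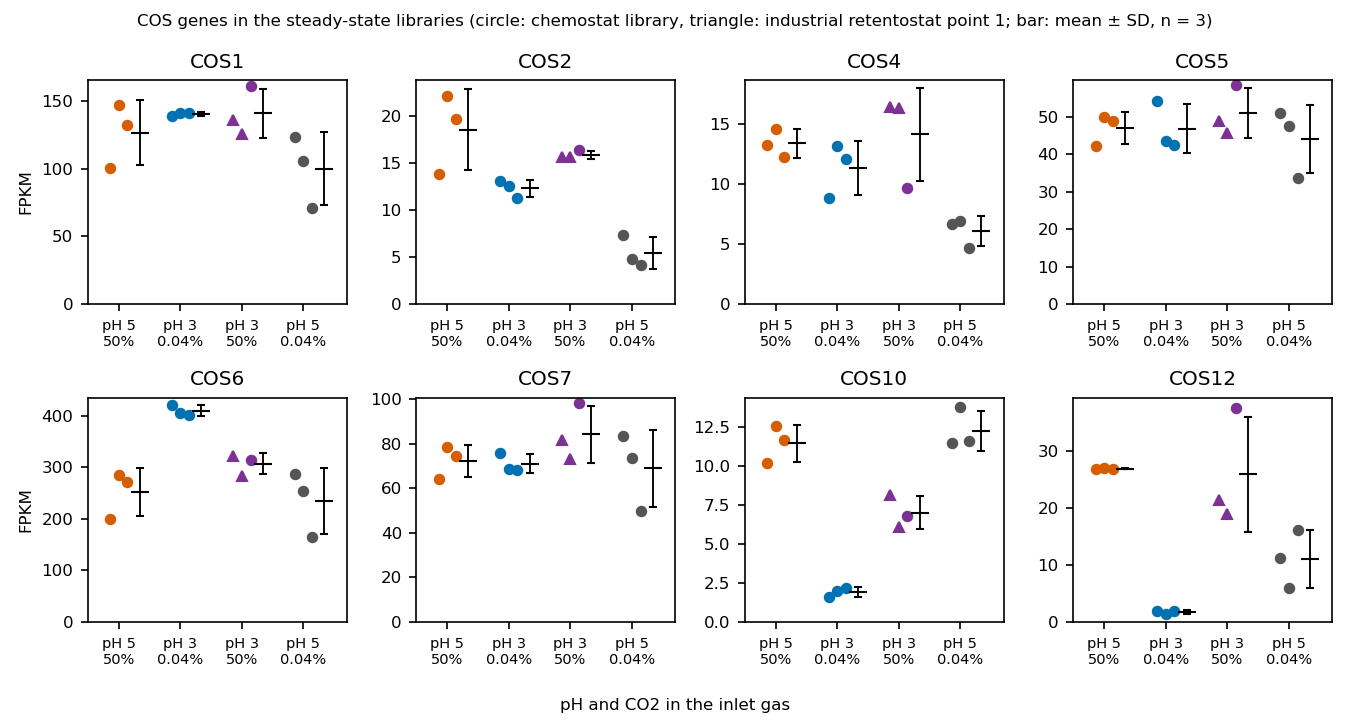
Level of 8 COS genes (y axes, FPKM from 0) in the steady-state libraries by pH and CO2 (x axes). Circles are chemostat libraries, triangles the industrial retentostat libraries at point 1, and black bars give mean ± SD of 3 libraries, with COS10 and COS12 near 2 FPKM in all 3 libraries at pH 3/0.04% CO2.

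COS10, a divergent member, fell at low pH. It had 1.59, 1.96 and 2.19 FPKM at pH 3/0.04% CO2, against 11.4, 13.7 and 11.6 FPKM in the reference, from 25 to 32 reads and from 180 to 211 reads per library. These groups did not overlap, and how many of all genes separate in the same way was not counted. COS10 averaged 8.15 FPKM over the 12 libraries, under the minimum mean of 10 FPKM for testing, and was therefore tested in the fit without that filter, over 6408 genes. There its log2(FPKM + 1) was lower by 2.19 on the log2 scale (SE 0.17, limma, adjusted p = 1.8e-05), past the limits of a 2-fold change and an adjusted p of 0.005 that 3.23% of genes passed in that fit. It stayed past both limits under all 17 alternatives tried, with adjusted p from 1.5e-05 to 2.4e-04. Those that left out libraries of groups outside this comparison could change the p-value but not the estimate. The median gene that passed the filter was lower by 0.42 here, and with each library scaled by its median COS10 was at -1.86. No 75-base window of COS10 occurred elsewhere in R64. Whether the viability, growth rate or oscillations of the low-pH cultures contribute to this change was not tested.

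At pH 3, COS10 was higher under high CO2, and at pH 5 no such call was made. It had 8.14, 6.09 and 6.77 FPKM at pH 3/50% CO2, against 1.59, 1.96 and 2.19 FPKM at pH 3/0.04% CO2, a log2 change of 1.46 (SE 0.17, limma, adjusted p = 2.3e-04), where 18.2% of genes passed in the fit without the filter. With each library also scaled by its median the change was 0.98, below the fold limit (adjusted p = 0.0054), and with the single labelled chemostat library it was 1.42 (adjusted p = 0.0056), and over the 17 alternatives the adjusted p ranged from 1.7e-04 to 0.0056. With 50% CO2 at pH 5 it had 10.2, 12.5 and 11.6 FPKM, against 11.4, 13.7 and 11.6 FPKM in the reference, a log2 change of -0.09 (SE 0.17, limma, adjusted p = 1.0) where 0.375% of genes passed. The test of the difference between these CO2 effects, the interaction of pH and CO2, gave 1.55 (SE 0.24, limma, adjusted p = 0.0048, with 0.749% of genes past the limits), and it kept its call in 2 of 17 alternatives. The median over the 5078 genes that passed the filter was 0.62 for this interaction, and with libraries scaled by their median COS10 was at 1.04 (adjusted p = 0.039). Against the reference, COS10 at low pH and high CO2 together differed by -0.73 (SE 0.17, adjusted p = 0.027), which did not pass, as 1.28% of genes did. Low pH at 50% CO2 gave -0.64 (SE 0.17, adjusted p = 0.062), against 0.811% of genes past the limits.

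COS12, the other divergent member, had a similarly low level at pH 3/0.04% CO2 but stood higher under high CO2. Its libraries had 26.8, 26.9 and 26.7 FPKM at pH 5/50% CO2, against 11.1, 5.89 and 16.1 FPKM in the reference. At pH 3/0.04% CO2 it had 2.00, 1.38 and 1.88 FPKM, the lowest of the 4 groups. At pH 3/50% CO2 it had 37.4 FPKM in the chemostat library and 21.3 and 18.9 FPKM in the industrial steady-state libraries, so the 2 kinds of culture in that group stood apart. On the log2 scale, described and not tested, COS12 differed from the reference by 1.30 at high CO2, -2.04 at low pH and 1.19 with both, and pH 3/50% CO2 differed from pH 3/0.04% CO2 by 3.23. With the single labelled chemostat library standing for pH 3/50% CO2, the last 2 values were 1.77 and 3.81. With all libraries, each scaled by its median, the values in the same order were 1.323, -1.755, 1.031 and 2.787.

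The gene next to COS12 had the most similar profile of the 5078 genes. YGL262W, a gene of unknown function that starts 1379 bases from the end of COS12 on the same strand, correlated with COS12 at r = 0.985 over the 12 libraries, which share condition and depth. It averaged 44.6 ± 4.93 FPKM at pH 5/50% CO2, 4.90 ± 0.815 at pH 3/0.04% CO2, 52.8 ± 15.3 at pH 3/50% CO2 and 24.2 ± 13.9 FPKM in the reference (SD, n = 3 each). The next most similar were YMR209C (r = 0.979), the methionine-cycle methyltransferase gene MHT1 (0.975), the arsenate reductase gene ARR2 (0.966) and the ER nucleotide exchange factor gene SIL1 (0.965). MHT1 and ARR2 lay within 20 kb of a chromosome end, at 16638 and 8395 bases, and YMR209C and SIL1 did not.

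**Figure D3:**
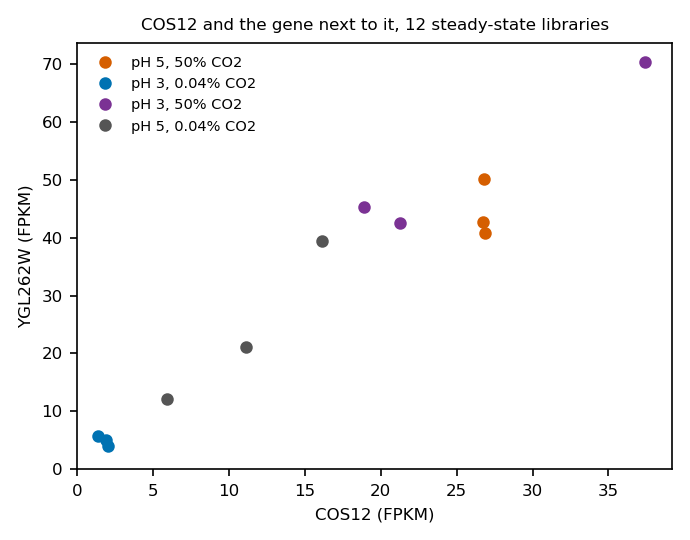
Level of YGL262W (y axis, FPKM) against COS12 (x axis, FPKM) in the 12 steady-state libraries, coloured by group. The 3 libraries at pH 3/0.04% CO2 lie nearest the origin, with COS12 at 1.38 to 2.00 FPKM and YGL262W at 4.05 to 5.68 FPKM.

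COS2 stood above the reference in every other steady-state group. It had 13.8, 22.2 and 19.7 FPKM at pH 5/50% CO2, 13.1, 12.6 and 11.3 at pH 3/0.04% CO2, and 15.6, 15.7 and 16.4 at pH 3/50% CO2, against 7.35, 4.81 and 4.19 FPKM in the reference. The reference levels came from 66 to 122 reads. COS2 was chosen for such changes, so its separation from the reference follows from that choice. The log2 differences from the reference, described and not tested, were 1.61 at high CO2, 1.07 at low pH and 1.42 with both. High CO2 at pH 3 differed from pH 3/0.04% CO2 by 0.35, and by -0.18 with each library scaled by its median. Most similar to COS2 among the genes tested were the alkaline ceramidase gene YPC1 (r = 0.920), PXP1 (0.912), the cell-wall protein gene ZPS1 (0.906), LEE1 (0.898) and CSS2 (0.885), over the same 12 libraries. Reads listed under COS2 and none under COS3 came from identical coding sequences in R64, and how they were assigned was not tested.

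COS4 ran close to COS2. It had 13.2, 14.6 and 12.3 FPKM at pH 5/50% CO2, 8.83, 13.2 and 12.0 at pH 3/0.04% CO2, and 16.4, 16.3 and 9.66 at pH 3/50% CO2, against 6.69, 6.93 and 4.64 FPKM in the reference. The labelled chemostat library at pH 3/50% CO2 was the lowest of its group. The log2 changes were 1.03 at high CO2 (SE 0.24, limma, adjusted p = 0.045), 0.80 at low pH (SE 0.24, adjusted p = 0.019) and 1.07 with both (SE 0.24, adjusted p = 0.016). None passed the adjusted p of 0.005, and at an adjusted p under 0.05 with no fold limit 1.71%, 43.2% and 6.93% of all genes passed in these comparisons. With each library scaled by its median the changes were 1.04 (limma, adjusted p = 0.12), 1.17 (adjusted p = 0.016) and 0.92 (adjusted p = 0.068) in the same order. The 3 comparisons share the reference libraries. COS4 averaged 6.09 FPKM in the reference and 11.2 over the 12 libraries, so it passed the filter only through the groups where it was high. These p-values therefore depend in part on the change itself and are no support for it.

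COS6 stood highest at pH 3/0.04% CO2. It had 422, 406 and 402 FPKM there, against 286, 254 and 164 FPKM in the reference. The log2 change of 0.84 (SE 0.20, limma, adjusted p = 0.0080) did not pass the limits. Relative to the median gene in this comparison, which was lower by 0.42, the change was larger, and with each library scaled by its median it was 1.24 (adjusted p = 0.0080). COS1 differed by 0.52 (SE 0.20, adjusted p = 0.051), with 139, 141 and 141 FPKM at pH 3/0.04% CO2, against 124, 106 and 70.8 FPKM in the reference. COS5 and COS7 overlapped the reference there, with log2 differences of 0.10 (SE 0.18) and 0.07 (SE 0.19). Replicate 3 was the lowest reference library for each of these genes. Without it the low-pH changes were 0.603 for COS6, 0.295 for COS1, -0.079 for COS5 and -0.143 for COS7.

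Of the 8 members other than COS2 and COS12, 5 passed the filter on low values (COS1, COS4, COS5, COS6 and COS7), and 0 of them were called in any of the 6 steady-state comparisons. Among all genes tested 0.453% were called for high CO2 at pH 5, 3.82% for low pH at 0.04% CO2, 1.40% for both together, 23.7% for high CO2 at pH 3, 1.12% for low pH at 50% CO2 and 1.12% for the interaction. At an unadjusted p under 0.05 limma gave 1 of 5 for high CO2 at pH 5 (COS4), 3 of 5 for low pH (COS1, COS4 and COS6), 2 of 5 for both together (COS1 and COS4), 1 of 5 for the interaction (COS4) and 0 of 5 for the other 2 comparisons. COS4 passed the filter only through the groups where it was high, so its part in these counts is no support. Over all genes tested the shares at this threshold were 9.65% for high CO2 at pH 5, 55.1% for low pH, 28.2% for both together, 61.5% for the interaction, 72.4% for high CO2 at pH 3 and 28.3% for low pH at 50% CO2, so 3 of 5 at low pH was near the share of all genes. The median log2 change of the 5 was 0.13 for high CO2 at pH 5, 0.52 for low pH and 0.42 for both, against -0.02, -0.42 and 0.18 over all genes tested. For high CO2 at pH 3 it was 0.13, against 0.60 over all genes, and all 5 members lay below the median gene, led by COS6 at -0.42 (SE 0.20, adjusted p = 0.071).

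**Figure D4:**
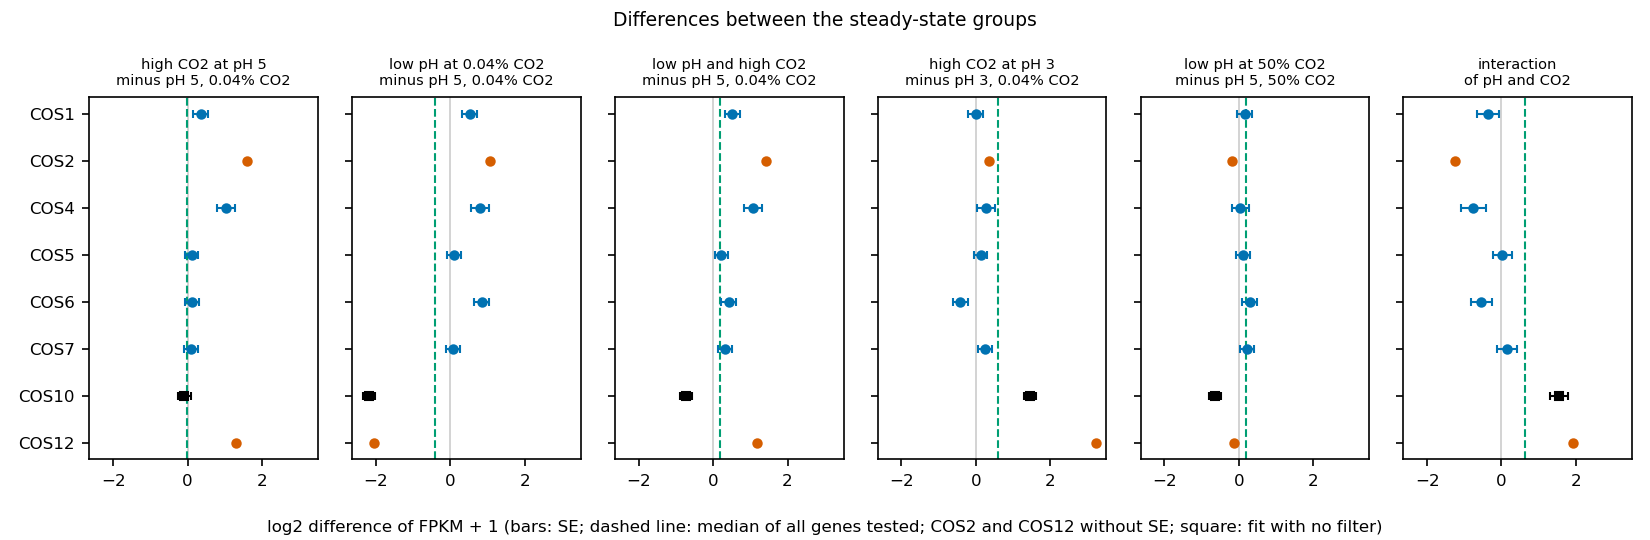
log2 difference of FPKM + 1 (x axes) for 8 COS genes (y axis) in 6 steady-state comparisons, with bars of 1 SE, none for COS2 and COS12, and dashed lines at the median of all genes tested. COS10 (squares, from the fit with no filter) and COS12 lie near -2 for low pH at 0.04% CO2, where COS2, COS4 and COS6 lie between 0.80 and 1.07.

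In the industrial retentostats COS2 and COS4 were higher after point 1. COS2 had 15.6 and 15.7 FPKM at point 1, 25.1 and 24.2 at point 2, 23.4 and 30.5 at point 3, and 27.0 and 30.2 FPKM at point 4 in cultures 1 and 2. Both cultures were above their first point at each later point, with a slope of 0.26 log2 units per point that was not tested. The share of all genes with such an order was not counted. COS4 had 16.4 and 16.3 FPKM at point 1, 35.6 and 22.7 at point 2, 23.1 and 22.2 at point 3, and 30.3 and 29.0 FPKM at point 4. Its slope was 0.22 log2 units per point (SE 0.085, limma, adjusted p = 0.11), which did not pass. Without the library of point 2 of culture 1, the highest of the 8, it was 0.25 (adjusted p = 9.3e-04, R2 of 0.92) and passed, in a fit that called 865 genes in place of 270.

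COS10 went the other way in the industrial retentostats and COS6 had no steady course. COS10 had 8.14 and 6.09 FPKM at point 1, 3.598 and 5.88 at point 2, 4.03 and 3.92 at point 3, and 4.37 and 3.80 FPKM at point 4. Every later library was below both of point 1, by a small margin at the nearest (5.88 against 6.09 FPKM). How many of all genes separate in this way was not counted. The slope of -0.22 (SE 0.078, limma, adjusted p = 0.091, fit without the filter) did not pass. COS6 had 323 and 284 FPKM at point 1, 416 and 285 at point 2, 227 and 223 at point 3, and 262 and 269 at point 4 (slope -0.12, SE 0.074, adjusted p = 0.30). COS12 ranged from 18.9 to 29.7 FPKM over the 8 libraries, COS1 from 123 to 201, COS5 from 45.8 to 76.3 and COS7 from 73.0 to 117, with point 2 of culture 1 the highest for COS1, COS4, COS5, COS6 and COS7. COS3 and COS8 were listed at 0 throughout. Of the 5 members that passed the filter and were tested, 0 were called, and 5.26% of 5130 genes were. At an unadjusted p under 0.05 limma gave 1 of 5 (COS4), against 32.8% of all genes tested.

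In the laboratory retentostats COS4 and COS6 had higher values at the later points. COS4 had 5.92 and 5.93 FPKM at point 1, 7.48 and 6.21 at point 2, 15.5 and 11.3 at point 3, and 12.4 and 13.5 FPKM at point 4. All 4 libraries of points 3 and 4 exceeded the 4 earlier ones, and how many of all genes separate in this way was not counted. COS4 averaged 9.78 FPKM, just under the filter, and in the fit without it its slope was 0.39 (SE 0.076, limma, adjusted p = 0.0070) with an R2 of 0.79, below the limit of 0.8 that, with an adjusted p of 0.03, 10.9% of genes passed in that fit. Without the library of point 2 of culture 2 its mean passed the filter, but only through the later points where COS4 was high. The call made in that fit (0.37, limma, adjusted p = 0.015, R2 of 0.82) therefore depends on the change itself and is no support for it. COS6 had 129 and 112 FPKM at point 1, 103 and 135 at point 2, 190.1 and 191 at point 3, and 156 and 198 FPKM at point 4 (slope 0.23, SE 0.077, adjusted p = 0.040). COS1 had 26.5 and 19.3 FPKM at point 1, 27.6 and 22.0 at point 2, 35.9 and 28.4 at point 3, and 36.0 and 31.3 FPKM at point 4. Its slope was 0.20 (SE 0.064, limma, adjusted p = 0.034, R2 of 0.62). The 2 cultures differed in level throughout, and with the culture as a block the slope passed both limits (adjusted p = 0.013, R2 of 0.90), as did 15.2% of genes in that fit. The block called 0 of 5 members in the industrial series, where 6.94% of genes passed, and 0 of 5 for the difference in slope, where 2.05% did. Without the block 0 of 4 members tested were called, against 11.3% of 5666 genes, and 2 of 4 (COS1 and COS6) had an unadjusted p under 0.05 in limma, near the 46.4% of all genes tested that did.

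COS12 split the laboratory cultures. Culture 1 had 8.76, 6.61, 25.6 and 27.9 FPKM at points 1 to 4, and culture 2 had 13.3, 10.6, 11.5 and 9.95 FPKM. Culture 1 alone was higher at points 3 and 4. Its neighbour YGL262W did not follow, with 22.6, 44.0, 39.8 and 39.6 FPKM in culture 1 and 27.0, 36.7, 30.6 and 22.8 FPKM in culture 2. COS7 stood apart in 1 library, with 14.3 FPKM at point 2 of culture 1, against 33.9 to 68.8 FPKM in the other 7. COS10 ranged from 8.64 to 17.8 FPKM, with both cultures highest at point 1 (slope -0.12, SE 0.089, adjusted p = 0.32). COS5 ranged from 6.14 to 9.01 FPKM and COS8 from 4.12 to 6.86 FPKM, with no order by point. COS2 and COS3 were listed at 0 in all 8 libraries.

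**Figure D5:**
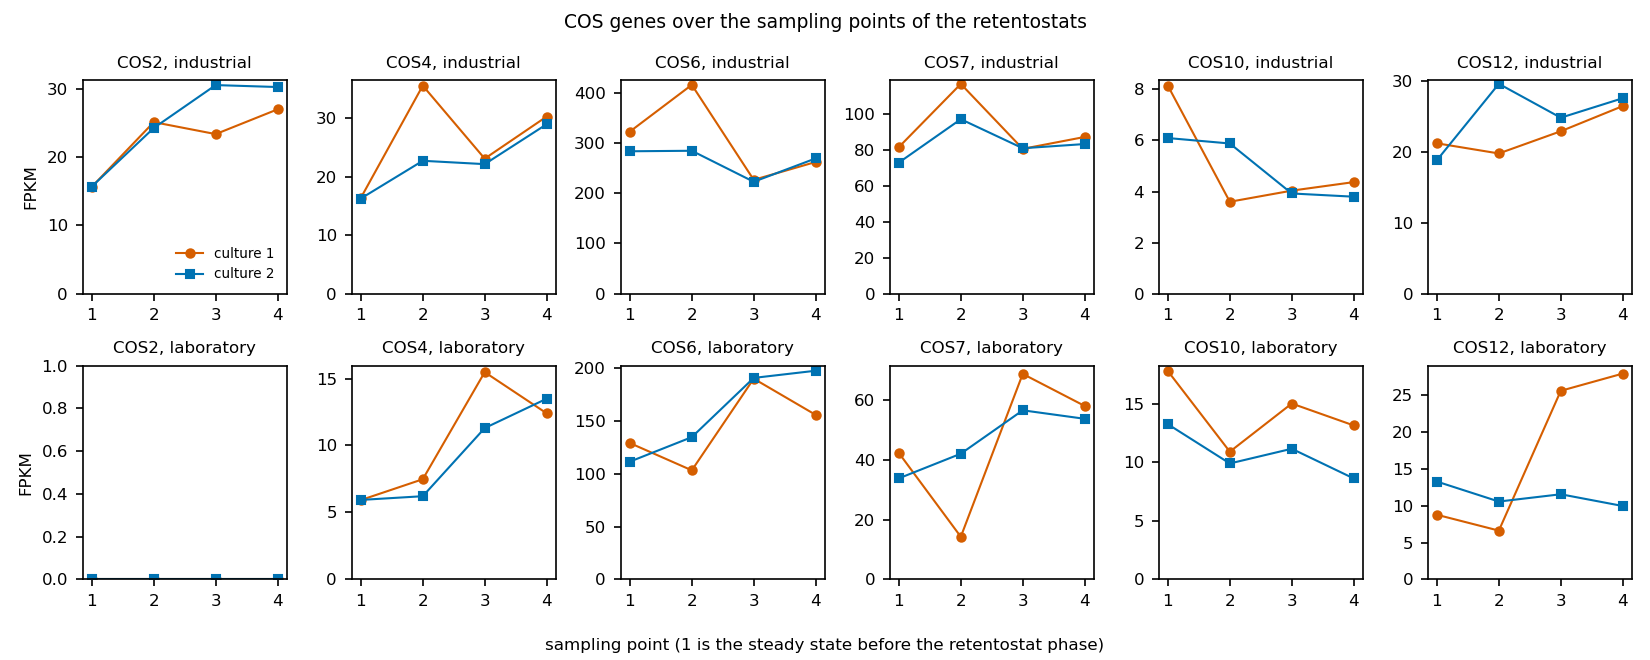
Level of 6 COS genes (y axes, FPKM) at sampling points 1 to 4 (x axes) in the industrial (upper row) and laboratory (lower row) retentostats, with 1 line for each culture and axes scaled panel by panel. COS2 is listed at 0 in the laboratory series, and COS12 reaches 27.9 FPKM in culture 1 and 9.95 FPKM in culture 2 at point 4.

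The slopes of the 2 kinds of retentostat were compared within 1 fit over all 16 libraries. COS6 had the largest difference among the members tested, at -0.35 log2 units per point, industrial minus laboratory (SE 0.11, limma, adjusted p = 0.072). COS1 differed by -0.21 (SE 0.096, adjusted p = 0.19), COS4 by -0.17 (SE 0.12, adjusted p = 0.39), COS7 by -0.29 (SE 0.19, adjusted p = 0.35) and COS5 by -0.02 (SE 0.093, adjusted p = 0.93). None of the 5 was called, against 2.55% of 5613 genes, and COS1 and COS6 had an unadjusted p under 0.05 in limma, as did 24.5% of all genes tested. COS10, tested without the filter, differed by -0.10 (SE 0.12, adjusted p = 0.66), against 3.51% of genes past the limit. Sequencing site and condition cannot be told apart in this comparison.

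Relatives and partners of the family were followed as lists. Of the 11 DUP relatives, 8 were tested in the steady states and 0 were called in any comparison with the reference or for low pH at 50% CO2. Among all genes tested, 0.453% were called for high CO2 at pH 5, 3.82% for low pH, 1.40% for both and 1.12% for low pH at 50% CO2. For high CO2 at pH 3 the relatives DFP2 (log2 change 1.14, SE 0.29, limma, adjusted p = 0.0043) and KTD1, whose product guards against killer toxin K28 (1.04, SE 0.22, adjusted p = 0.0018), rose, with a list median of 0.58 against 0.60 for all genes. These 2 of 8 were near the 20.8% of all genes called higher there. Neither was called with libraries scaled by their median, at 0.61 and 0.50. COS9, a COS gene outside the 10, fell over the industrial sampling points (slope -0.31, SE 0.056, limma, adjusted p = 0.0075), the only relative of 7 tested to pass there, against 1.99% of all genes lower, and it was not called with median scaling (-0.33, adjusted p = 0.014).

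Of 21 genes of multivesicular body sorting, the step in which Cos proteins act, 0 were called against the reference under high CO2, low pH or both, and 1 rose at low pH with libraries scaled by their median. Over all genes, as deposited, 0.453%, 3.82% and 1.40% were called in these comparisons. For high CO2 at pH 3, 8 of 21 rose and 0 fell, among them the ESCRT-III subunit genes VPS20 (log2 change 1.75, SE 0.37, limma, adjusted p = 0.0019), DID2 (1.39, SE 0.36, adjusted p = 0.0044), DID4 (1.33, SE 0.29, adjusted p = 0.0020) and the regulator IST1 (1.33, SE 0.30, adjusted p = 0.0026). Of 15 genes tested from a list on silencing, not all of it at telomeres, 6 rose there and 0 fell. Among them were SAS4 (1.53, SE 0.31, limma, adjusted p = 0.0017) and SAS2 (1.22, SE 0.18, adjusted p = 0.00067) of a histone acetyltransferase complex, SIR1 (1.36, SE 0.26, adjusted p = 0.0013) and the end-binding gene YKU70 (1.30, SE 0.28, adjusted p = 0.0019). The medians of the 2 lists were 1.02 and 0.94, against 0.60 for all genes, of which 20.8% were called higher and 2.93% lower. These counts depend on scaling. As deposited, 1203 genes were called in this comparison and 87.6% of them were higher, whereas with each library scaled by its median 431 were called and 12.3% were higher, 0 of these 2 lists rose and 1 gene of each fell. In the laboratory retentostats 3 of 20 sorting genes rose over the points (VPS24, MVB12 and SNF8, slopes 0.32, 0.30 and 0.23) and 3 of 18 silencing genes rose (SAS5, SAS2 and SIR1, slopes 0.39, 0.35 and 0.26), against 9.67% of all genes higher and 1.64% lower. With median scaling 1 and 3 rose. In the industrial retentostats 0 of 21 and 0 of 16 rose, against 3.27% of all genes higher, and 0 and 2 rose with median scaling. The difference between the slopes passed for the sorting gene STP22 (0.54, SE 0.12, adjusted p = 0.024) and for SAS2 (-0.36, SE 0.080, adjusted p = 0.022), against 0.980% of all genes higher and 1.57% lower.

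Other genes within 20 kb of a chromosome end numbered 234, of which 100 were tested in the steady states. At low pH with 0.04% CO2, 16 fell and 4 rose, against 2.58% of all genes lower and 1.24% higher, and the list median was -0.30 against -0.42 over all genes. The largest were YOL164W-A (log2 change -2.36, SE 0.24, limma, adjusted p = 5.4e-05), YAR068W (2.32, SE 0.44, adjusted p = 0.0034), the aryl-alcohol dehydrogenase gene AAD15 (-2.02, SE 0.30, adjusted p = 0.00091) and YPL278C (1.99, SE 0.17, adjusted p = 1.9e-05). As deposited, 32.5% of all 194 calls of this comparison were higher, and 74.3% of 167 were with libraries scaled by their median, under which 4 subtelomeric genes fell and 7 rose. Under high CO2 at pH 5, 2 of 100 rose (YAR068W, 3.34, and the IMP dehydrogenase gene IMD2, 1.73) and 0 fell, against 0.118% and 0.335% of all genes. With both factors 6 of 100 rose, among them the formate dehydrogenase gene FDH1 (2.08, SE 0.30, adjusted p = 0.0011), and 0 fell, against 0.630% and 0.768% of all genes. For high CO2 at pH 3, 20 of 100 rose and 0 fell, led by YGL262W at 3.16, which was near the 20.8% higher and 2.93% lower among all genes, and with median scaling 9 rose and 9 fell. For low pH at 50% CO2, 7 of 100 rose and 1 fell, against 0.670% and 0.453% of all genes, and for the interaction 1 was higher and 1 lower, against 0.473% and 0.650%. Over the industrial sampling points 9 of 102 rose and 2 fell, against 3.27% and 1.99%, and over the laboratory points 11 of 113 rose and 2 fell, near the 9.67% and 1.64% of all genes, or 4 and 2 with median scaling. The difference in slope passed for 5 of 120, of which 1 was higher and 4 lower, against 2.55% of all genes called, 0.980% higher and 1.57% lower.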

How the data were processed

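RNA was sequenced from 26 libraries. The deposited FPKM values were made by the authors, whose processing notes name STAR 2.5.3a, SAMtools, HTSeq, edgeR and the R64 genome; per the study's methods, reads of ambiguous position were removed. Read counts recovered from these values were whole (within 0.05) for 99.7% to 99.9% of lower-count genes in each library. Of 6600 ids, 5917 matched R64. Members and lists were chosen with earlier results of these data known.

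Values were tested as log2(FPKM + 1) with limma 3.58.1 (trended) in R 4.3.3, with Benjamini-Hochberg adjustment over all genes with a mean of at least 10 FPKM. Calls required a 2-fold change and an adjusted p under 0.005 between steady states, or an adjusted p under 0.03 and an R2 over 0.8 for a slope over sampling points, numbered because the labels give no growth rates. Slope differences had no R2 limit. The pH 3/50% CO2 group joined 1 chemostat and 2 retentostat point 1 libraries. Where nothing states separate cultures, p-values measure only the spread between libraries. All members were named, with the 5 genes most like COS2 and COS12 and at most 4 called genes per list and comparison. Alternatives were another pseudocount, no filter, median and quantile scaling, a culture or replicate block, other limits, groups fitted alone, a single chemostat library and each library left out. Those for COS10 without the filter were added after seeing the data. Culture numbers in the labels pair retentostat libraries of 1 culture, whose deviations correlated at -0.066 to 0.270 in the industrial series and -0.010 to 0.717 in the laboratory series. The tests were checked on simulated data. Sequences are from RefSeq R64, read with biopython 1.88 in Python 3.11.15.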

Additional observations from a re-analysis of the deposited data

Results flagged for a closer look

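The effect of high CO2 on COS10 differed between the pH values in 1 fit, and the call depends on the processing. In the fit without the filter on low values, the difference between the CO2 effects (pH 3 minus pH 5) was 1.55 on the log2 scale (SE 0.24, limma, adjusted p = 0.0048), with changes of 1.46 at pH 3 and -0.09 at pH 5. The median gene that passed the filter was itself at 0.62 in this difference, and COS10 was at 1.04 with libraries scaled by their median. The call was lost in 15 of 17 alternatives, over which the value ranged from 1.04 to 1.92 and the adjusted p from 0.0023 to 0.039.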

How the results depend on the processing

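No member was called with the settings reported, and the count moved as follows. Without the filter on low values, 1 member (COS10) was called for low pH at 0.04% CO2, 1 for high CO2 at pH 3 and 1 for the interaction. With an adjusted p under 0.05 and no fold limit, 1 (COS4) was called for high CO2 at pH 5, 2 (COS4 and COS6) for low pH at 0.04% CO2 and 1 (COS4) for both factors together, against 1.71%, 43.2% and 6.93% of all genes under that setting. COS4 passed the filter in these comparisons only through the groups where it was high. With the culture as a replicate block, 1 (COS1) was called for the laboratory trend, and the block changed no other count of members. Taking the last point minus the first, 1 (COS4) was called for the industrial trend, where 921 of 5130 genes were. Leaving out 1 library at a time gave 0 to 1 members for each retentostat trend and 0 in every other comparison. Low pH at 50% CO2 and the difference in slope gave 0 under all 20 and 22 alternatives run.

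The labels do not say whether steady-state replicate numbers pair libraries, and correlations of -0.802 to 0.502 between deviations of the same number do not settle it. With the replicate number as a block, 119 genes were called for low pH in place of 194 and 15 for the interaction in place of 57. Scaling moved counts over all genes most for high CO2 at pH 3, from 1203 to 431 (median) or 382 (quantile). Leaving out pH 5/50% CO2 replicate 1 gave 1526 interaction calls. With the single labelled chemostat library at pH 3/50% CO2, COS12 differed by 0.47 for low pH at 50% CO2, in place of -0.11. The causes were not tested. Over all alternatives, counts of genes called ranged from 2 to 87 for high CO2 at pH 5, 62 to 2195 for low pH, 11 to 352 for both, 140 to 3551 for high CO2 at pH 3, 1 to 228 for low pH at 50% CO2, 0 to 2667 for the interaction, 93 to 921 for the industrial trend, 291 to 1514 for the laboratory trend, and 11 to 524 for their difference. COS10 at pH 3/0.04% CO2 rests on 25 to 32 reads per library.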
